A study of Macaca mulatta with 24 samples.

Results

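The liver and the lung of the same Rhesus macaque fetuses were compared directly, with 8 liver and 8 lung libraries of polyA-selected RNA, 16 of the 24 libraries in the series. The libraries were chosen by tissue alone, and each liver library was paired with the lung library of its own fetus. All mothers had received betamethasone, a synthetic glucocorticoid given before preterm birth to mature the fetal lung, and these libraries hold no untreated fetus. The 4 clinical animals came from mothers injected in the muscle, 2 times and 24 h apart, with betamethasone phosphate plus betamethasone acetate (0.25 mg/kg each time), and their gestational ages at delivery were 132 to 133 days (mean 132.75). The 4 oral animals came from mothers given betamethasone phosphate by mouth, 3 times and 12 h apart (0.15 mg/kg each time), at 127 to 132 days (mean 129.75), so that treatment and age differed together. Delivery was at 5 days in both groups. The replicates are separate fetuses.

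The fetal liver is built mainly of hepatocytes, which secrete the plasma proteins in large amounts, and in fetal life it is also a site of blood cell formation. The fetal lung is filled with fluid and holds epithelium, mesenchyme, endothelium and smooth muscle. Its type 2 epithelial cells make surfactant, the lipid and protein film that keeps alveoli open after birth, and glucocorticoids bring that maturation forward. The files list Ensembl transcripts without gene names, and 0 of the 45579 identifiers could be paired with a name, so values are given by transcript, the roles of the genes are not stated and the tissue labels could not be checked against marker genes.

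Library totals were 25803700 to 32122767 counts in the liver and 21088272 to 28641485 in the lung. Among transcripts with at least 100 counts in all 8 libraries of a tissue, no pair of libraries of that tissue held the same value in more than 0.449% (liver) or 0.547% (lung) of them, so no library was a repeat of another. The liver and the lung were largely sequenced apart. By the labels, 7 of the liver libraries shared a sequencing run with the lungs of clinical animals 1 and 2, the liver of oral animal 3 was in a run of its own and the other 6 lungs were in another run. Tissue and run can be told apart only within the shared run, and results from its libraries are given beside the main ones.

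The counts of the liver were concentrated in few transcripts and those of the lung were spread over many. The single most abundant transcript held 9.78 to 11.7% of a liver library and 0.81 to 1.08% of a lung library. The 10 most abundant transcripts held a median of 28.2% of the counts in the liver (24.4 to 31.3%) and 5.07% in the lung (4.89 to 6.43%). The highest lung library was far below the lowest liver library. Within an animal the liver exceeded the lung by 22.9 ± 2.32 percentage points (mean ± SD, n = 8), and by 19.2 to 26.3 in all 8 animals (two-sided exact permutation test by sign changes, p = 0.00781, the smallest that 8 pairs allow).

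The number of transcripts needed to reach 50% of the counts was 57 to 104 in the liver (median 75.5) and 1456 to 1578 in the lung (median 1534). The tissues did not overlap, and the liver differed from the lung by -1449 ± 45.7 transcripts (SD, n = 8, exact permutation p = 0.00781). At 10 counts or more, fewer transcripts were detected in the liver, with 24059 to 25428 (median 24944) against 26600 to 27656 in the lung (median 26986). The difference within an animal was -2134 ± 522 transcripts (SD, n = 8) and had the same direction in 8 of 8 animals (exact permutation p = 0.00781). Counts held by the most abundant transcripts are not left for the rest, so detection is not independent of the other measures. These 3 measures did not differ detectably between the clinical and oral animals in their tissue difference (exact permutation p = 0.0857 for detected transcripts, 0.171 for the share of the 10 most abundant and 0.343 for the number that reaches 50%).

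**Figure D1:**
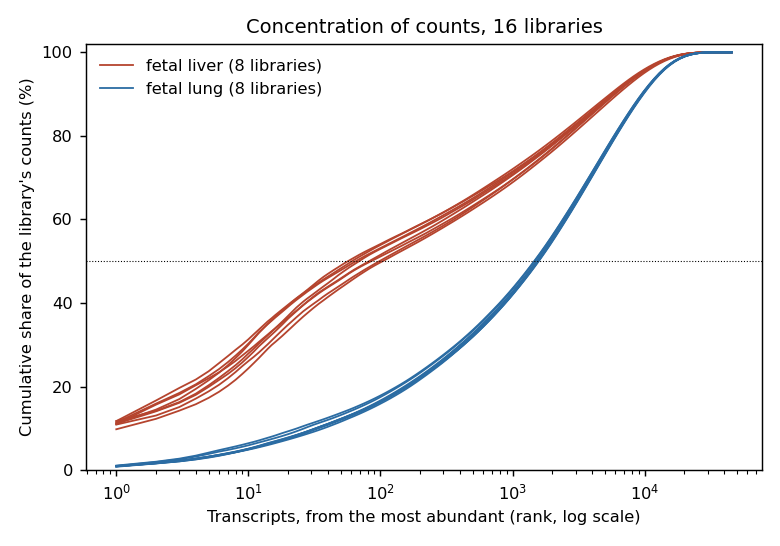
Cumulative share of a library's counts (%) against transcript rank from the most abundant (log scale), 1 line per library, 8 liver and 8 lung. The dotted line marks 50%, which the liver libraries cross at 57 to 104 transcripts and the lung libraries at 1456 to 1578.

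Over 26745 transcripts with enough counts to be tested, 14537 (54.4%) differed between the tissues. A call needed a q-value under 0.1, an unadjusted p under 0.05 and a difference of 1.5-fold or more, from edgeR's quasi-likelihood test with the animal as a block and Benjamini-Hochberg adjustment over the 26745. Of these, 6946 (26% of those tested) were higher in the liver and 7591 (28.4%) were higher in the lung. In 4935 of the former every liver library lay above every lung library, and in 5364 of the latter every lung library lay above every liver library. Over all 26745 tested, called or not, the liver libraries were all above in 5364 (20.1%) and the lung libraries in 5805 (21.7%). The unadjusted p was below 0.05 for 18669.

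The 2 directions were similar in number and differed in how the levels were distributed. The median fold among called transcripts was 2.91 in the liver direction and 3.25 in the lung direction. At a fold of at least 4 there were 2724 in the liver direction and 3202 in the lung direction. At a fold of at least 100 the order was the opposite, with 580 in the liver direction and 274 in the lung direction. These counts by fold used a single scaling of the libraries, described below, and were not repeated with library totals. Large folds can also rest on 0 counts in the other tissue. ENSMMUT00000042864.2, with 0 liver counts, had an edgeR fold of 23090 but was at least 684.9-fold higher in the lung against 3 counts per liver library. Among the 215 transcripts with a mean log2 CPM over 8, where CPM is counts per 1000000 of the normalised library size, 35.3% were called higher in the liver and 21.9% in the lung. Among the 5293 with a mean log2 CPM of 0 or less the shares were 21.7% and 32.2%, and the median standard error was 0.62 on the log2 scale against 0.08 in the most abundant group.

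The transcripts higher in the liver held a median of 75.2% of the counts of a liver library (72.6 to 76.1%) and 17.7% of a lung library (17.5 to 19.4%). Those higher in the lung held 41.4% of a lung library (40.2 to 41.7%) and 5.9% of a liver library (5.45 to 6.64%). The 12208 transcripts not called held 40.6% of the lung counts and 18.7% of the liver counts. A similar number of transcripts therefore accounted for most of the RNA counted in the liver but for less than the majority in the lung.

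The split between directions rests on the scaling of the libraries. TMM normalisation, which sets the bulk of the transcripts to a common level, gave factors of 0.652 to 0.731 to the liver libraries and 1.43 to 1.49 to the lung libraries, and the median log2 difference over all transcripts tested was -0.06. With library totals alone the median was -1.15, and 2898 transcripts were higher in the liver and 17451 in the lung, so that 14.2% of the calls were in the liver direction against 47.8% with TMM. No transcript called in both fits changed its direction. With library totals a level is a share of the counts of a library. With TMM it is not, since levels are per normalised library size. The most abundant liver transcript, for example, held 9.78 to 11.7% of a liver library and was at 134200 to 176560 normalised CPM. Under either scaling levels are relative, and less RNA per cell and fewer cells of a type cannot be told apart in these bulk samples.

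**Figure D2:**
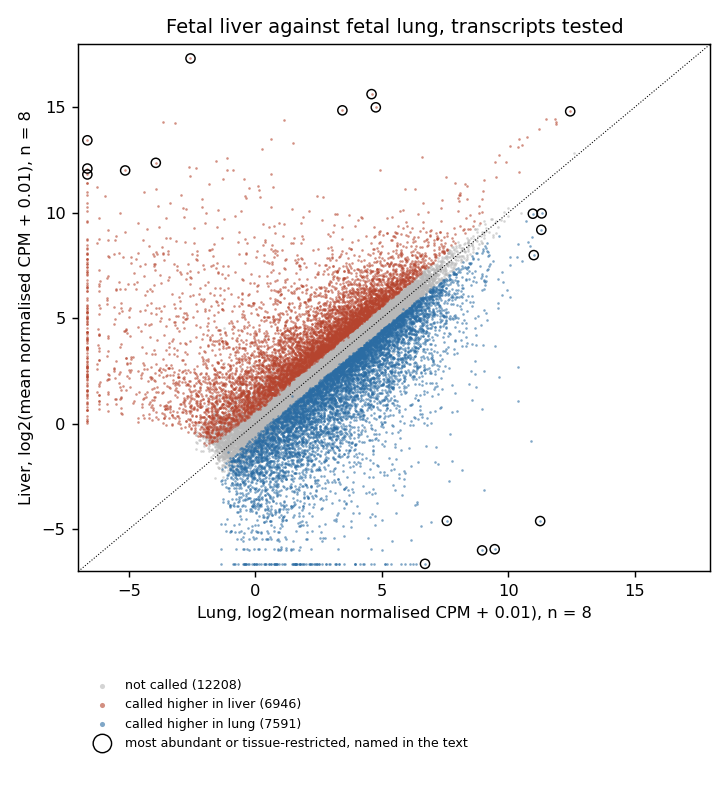
Mean level of each of the 26745 transcripts tested in the liver (vertical) and the lung (horizontal), as log2(normalised CPM + 0.01), n = 8 libraries a tissue. Red points were called higher in the liver (6946), blue points higher in the lung (7591) and grey points were not called (12208). Open circles mark the most abundant and the tissue-restricted transcripts described in the text, and the dotted line is equality.

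The most abundant transcript of the liver, ENSMMUT00000005417.3, was at 134200 to 176560 normalised CPM in the 8 livers (median 166480), with 2720000 to 3500000 counts. In the lung it had 0 counts in 7 libraries and 52 counts in that of clinical animal 1, which is 1.27 normalised CPM. The tissues were separated by more than 5 orders of magnitude of CPM. The ratio of the summed levels was 851100 (95% Poisson interval 649000 to 1140000, for counting error only), it rested on that single lung library, and over the 7 animals without it the liver was at least 1794000-fold higher than a floor of 3 counts per lung library (adjusted p = 6.72e-08 by edgeR over the 8 animals).

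ENSMMUT00000039542.2 was next in the liver, at 31050 to 74257 normalised CPM (median 46658) against 16 to 35.9 in the lung (median 23.8). ENSMMUT00000012466.3 was at 20078 to 45135 (median 32513) against 10.1 to 50.3 (median 24.9). ENSMMUT00000005421.3 was at 20828 to 37403 (median 30192) against 8.91 to 16.9 (median 9.81). All 3 were present in every lung library, with at least 289 counts, and were still separated from the liver by about 3 orders of magnitude. Their log2 differences were 11.01 ± 0.23, 10.33 ± 0.37 and 11.43 ± 0.22 (SE, n = 8 pairs, edgeR adjusted p = 3.76e-10, 8.14e-09 and 1.88e-10).

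The fifth most abundant, ENSMMUT00000038274.2, differed far less. It was at 23579 to 31714 normalised CPM in the liver (median 29143) and at 4796.9 to 7548.4 in the lung (median 5163.2). The groups did not overlap, which the rule for naming it required. The log2 difference was 2.37 ± 0.11 (SE, n = 8 pairs, edgeR adjusted p = 6.28e-08). With library totals alone it fell to 1.27 with the same direction.

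In the lung direction the most abundant transcripts were lower in level and mostly shared with the liver. ENSMMUT00000044336.2 was at 2086.3 to 2930.2 normalised CPM in the lung (median 2646.6) and at 798.5 to 1290 in the liver (median 970.1). ENSMMUT00000002604.3 was at 2058.8 to 3008.2 (median 2487.6) against 394.6 to 854.8 (median 551.3). ENSMMUT00000031338.3 was at 1610 to 2337.8 (median 2119.3) against 144.4 to 371.7 (median 260.3). None of these had overlapping tissues, which the rule for naming them required. By edgeR's estimate over the 8 animals all were within a factor of 9 of the liver. For ENSMMUT00000031338.3 the log2 difference, liver minus lung, reached -4.01 in a single animal. Over the alternatives its estimate ranged from -4.16 to -2.64. ENSMMUT00000015585.3 was the closest, at 1841 to 2249.5 (median 1980) against 735.7 to 1402.3 (median 981.8). The log2 differences, liver minus lung, were -1.36 ± 0.10, -2.15 ± 0.18, -3.07 ± 0.20 and -1.04 ± 0.09 in that order (SE, n = 8 pairs, edgeR adjusted p = 1.14e-06, 3.65e-06, 5.99e-07 and 4.69e-06).

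The exception was ENSMMUT00000025039.3, at 1649.3 to 3173.5 normalised CPM in the lung (median 2616.6). In the liver it had 5 counts over the 8 libraries together and at most 3 in any of them. It was thus both among the 5 most abundant transcripts of the lung direction and all but missing from the liver. The ratio of the summed levels was 78130 (95% Poisson interval 33480 to 240600, counting error only), with an edgeR adjusted p of 5.11e-10.

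**Figure D3:**
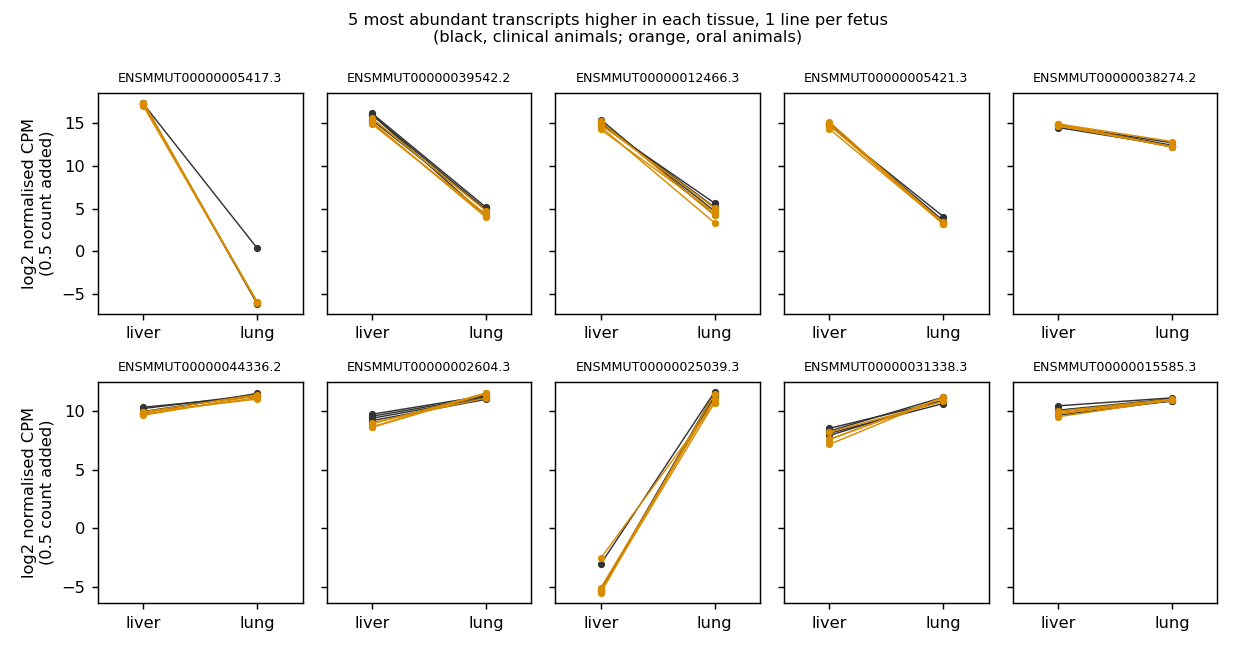
Levels of the 5 most abundant transcripts called higher in the liver (top) and in the lung (bottom), as log2 normalised CPM with 0.5 count added, with 1 line per fetus joining its liver and lung library (black, 4 clinical animals, orange, 4 oral animals). All 8 lines of each panel run the same way, because the transcripts were chosen from those whose tissues did not overlap. The lines end near the level of 0 counts in the lung for ENSMMUT00000005417.3 and in the liver for ENSMMUT00000025039.3.

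The transcripts with the smallest p-values outside the 5 most abundant differed in the SD of the tissue difference over animals. In the liver direction ENSMMUT00000067180.1 was at 8334.9 to 13538 normalised CPM (median 12313) against 1.23 to 1.80 in the lung (median 1.53), and the log2 difference within an animal ranged from 12.47 to 13.19 (SD 0.22). ENSMMUT00000010814.2 was at 2328.9 to 3062.1 (median 2633.4) against 0.154 to 0.351 (median 0.269). ENSMMUT00000066077.1 was at 536.4 to 1144.8 (median 859.1), with 1 to 4 counts in each lung library. The SDs of the log2 difference of the latter pair were 0.35 and 0.40. A lung library held 40 to 68 counts of ENSMMUT00000067180.1 and 5 to 14 of ENSMMUT00000010814.2. At such counts the SDs include counting error, which was not separated from differences between animals. The 3 transcripts had edgeR adjusted p-values of 3.09e-11, 3.09e-11 and 2.86e-11 in the order given. They were not among the 5 most abundant but were separated from the lung by a ratio of summed levels of 7570 (6881 to 8347), 9760 (7774 to 12430) and 11080 (7252 to 17910), with 95% Poisson intervals for counting error only.

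In the lung direction ENSMMUT00000031259.3 had the smallest p. It was at 171.7 to 207.5 normalised CPM in the lung (median 185.4) and at 10.3 to 12.6 in the liver (median 11.5). The log2 difference was -4.13 to -3.94 in the 8 animals, an SD of 0.07. The median SD was 0.25 over the 10101 transcripts with a mean log2 CPM of at least 3 in both tissues. The transcript was picked by its p, which favours a small spread, so the 2 SDs are not a like comparison. ENSMMUT00000014822.3 was at 104.5 to 175.5 (median 145.2) against 0.91 to 1.91 (median 1.61), a log2 difference of -6.51 ± 0.09 (SE, n = 8 pairs, edgeR adjusted p = 5.42e-11).

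Transcripts restricted to a tissue were counted without a test, as those with at least 20 counts in all 8 libraries of that tissue and at most 3 in all 8 of the other. There were 229 restricted to the liver and 188 restricted to the lung. At that level 18578 transcripts were present in all 8 livers, 21047 in all 8 lungs and 17159 in all 16 libraries. Of the 229, 109 had 0 counts in every lung library, and of the 188, 72 had 0 counts in every liver library. The same count is a higher normalised CPM in the liver than in the lung, so the lists were not cut at equal levels. The lowest mean levels were 1.93 normalised CPM on the liver list and 0.894 on the lung list.

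The liver-restricted transcripts had the higher levels. Their median was 32.5 normalised CPM and the lung-restricted median was 3.62. In the liver 68 of 229 were at 100 normalised CPM or more and 17 at 1000 or more, and in the lung 5 and 1 of 188. They held 4.43 to 5.26% of the counts of a liver library, and the lung-restricted transcripts held 0.63 to 0.98% of a lung library. With a minimum of 100 counts in place of 20 the numbers were 155 for the liver and 66 for the lung.

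ENSMMUT00000029982.3 was the most abundant of the liver-restricted transcripts, at 9372.3 to 13429 normalised CPM (median 11063), with 177582 to 276168 counts and 0 counts in all 8 lungs. It was at least 124700-fold higher in the liver against 3 counts per lung library. ENSMMUT00000024712.3, at 2620.1 to 5059.1 (median 3490.3), was at least 40610-fold higher on the same basis. ENSMMUT00000010778.3 also had 0 counts in all lungs and was at least 49270-fold higher, with a wider spread among livers, from 1248.3 to 6768.8 (median 4659.1). The remaining 2 of the 5 most abundant had a few lung counts. ENSMMUT00000011967.3 was at 4669.5 to 6054.6 (median 5191.9) with 15 lung counts in all, and ENSMMUT00000021194.3 was at 3423.4 to 5132.9 (median 3871.4) with 5.

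Among the lung-restricted transcripts ENSMMUT00000025039.3, described above, had the highest level. ENSMMUT00000013677.3 followed at 406.0 to 1192.4 normalised CPM (median 674.8), with 1 count in the 8 livers together, a ratio of 112900 (20260 to 4458000, 95% Poisson interval). ENSMMUT00000069783.1 was at 320.9 to 702.6 (median 492.1), also with 1 liver count, and was among the 3 transcripts with the smallest p in the lung direction. Levels then dropped. ENSMMUT00000032032.2 was at 135.2 to 231.6 (median 202.3) with 5 liver counts. ENSMMUT00000042864.2 was at 34.4 to 244.4 (median 83.2) with 0 liver counts, at least 684.9-fold higher in the lung against 3 counts per liver library, and its lung values varied more widely among fetuses than those of the others.

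The hippocampus libraries of the same 8 fetuses, a brain region with neither hepatocytes nor lung epithelium, were used to describe both lists. Of the liver-restricted transcripts, 122 of 229 (53.3%) had at most 3 counts in all 8 hippocampus libraries and 27 had at least 20 in all 8. Of the lung-restricted transcripts, 41 of 188 (21.8%) had at most 3 and 80 had at least 20. Over the 22466 transcripts with at least 20 counts in all 8 libraries of the liver or the lung, 1.69% had at most 3 in all 8 hippocampus libraries and 86.8% had at least 20, against 11.8% of the liver list and 42.6% of the lung list. The shares of the lists were not compared by a test. Of the hippocampus libraries 3 were in the run of the 6 lungs and none was in a run with livers. In the other 5, examined after the values were seen, 128 of the liver list and 44 of the lung list had at most 3 counts in all, and 28 and 85 had at least 20. The 5 most abundant lung-restricted transcripts had at most 2 counts in any hippocampus library, except ENSMMUT00000032032.2 with 34 to 69. Of the 5 most abundant liver-restricted transcripts, ENSMMUT00000021194.3 had 6 to 91, ENSMMUT00000011967.3 had 1 to 41, ENSMMUT00000029982.3 had 0 to 41, and ENSMMUT00000010778.3 and ENSMMUT00000024712.3 had 0 in all 8.

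**Figure D4:**
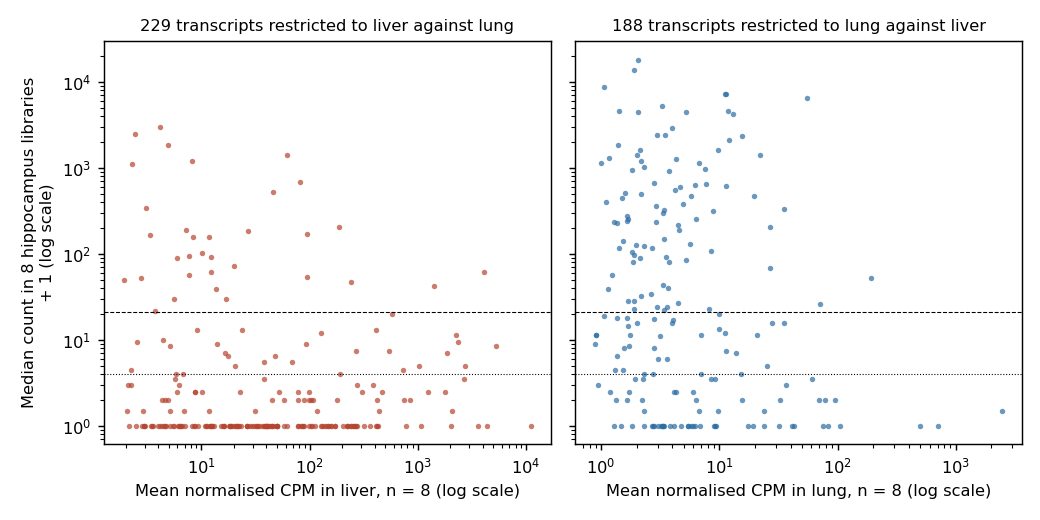
Median count in the 8 hippocampus libraries plus 1 (vertical, log scale) against the mean normalised CPM in the tissue of restriction (horizontal, log scale, n = 8) for the 229 liver-restricted and the 188 lung-restricted transcripts, 1 point each. The dotted line marks 3 counts and the dashed line 20. The liver-restricted transcripts reach higher levels, and more of the lung-restricted transcripts lie above the dashed line.

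Levels varied more among the liver libraries than among the lung libraries of a treatment. Over the 10101 transcripts with a mean log2 CPM of at least 3 in both tissues, the median SD between animals of a treatment was 0.215 in the liver and 0.148 in the lung, and it was the larger in the liver for 75.7%. An equal normalised CPM rests on fewer counts in the liver than in the lung, so counting error is larger there. Libraries of a tissue also came from different runs. Differences between animals were not separated from counting error or run. The direction of the tissue difference was the same in 8 of 8 animals for 6266 of them, and 3835 had animals in both directions. The SD of the tissue difference was above 1 for 119.

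The 3 transcripts with the largest SD among animals each had single libraries near 0. ENSMMUT00000041846.2 was at 25.7 to 29.6 normalised CPM in the lung (median 28.4). In the liver it was at 86.0 to 124.9 in 6 animals, at 29.7 in clinical animal 1 and at 0.0493 in oral animal 3, whose liver library was the only one of its run. Liver exceeded lung in 7 of 8 animals, the log2 difference over all 8 was 1.22 ± 0.72 (SE, edgeR adjusted p = 0.162), and without oral animal 3 it was 1.64 (edgeR adjusted p = 0.000298, with a range of 0.000298 to 0.887 over the alternatives).

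ENSMMUT00000028791.3 had 2 counts in the liver of clinical animal 2 and 5 in the lung of oral animal 4, against 166 to 929 in the other 14 libraries. Its tissues overlapped fully, with a log2 difference of -0.11 ± 0.97 (SE, n = 8 pairs, edgeR adjusted p = 0.925), positive without clinical animal 2, clinical animal 3 or oral animal 2 and without the block. ENSMMUT00000045171.2 was at 0 to 56.6 normalised CPM in the liver (median 23.4) and at 14.3 to 38.8 in the lung (median 25.8), a log2 difference of -0.46 ± 0.64 (SE, n = 8 pairs, edgeR adjusted p = 0.547). Its counts lay near whole multiples of 114 in every library of both tissues. It was 1 of 13 transcripts, of 24838 examined, whose values lay on average within 0.03 of a step from a multiple of a single step, with steps of 9.71 to 114 counts. In ENSMMUT00000063454.1, for example, the lung held 42, 84, 126 and 168 counts and the liver 0, 42.0, 42.1, 84.5, 126 and 168. For such transcripts the values of both tissues are not plain read counts, although those of the lung are whole, and the counting intervals above hold only where a count stands for 1 fragment. Of the 13, only ENSMMUT00000005131.3 was called, and none was restricted to a tissue. The search needed values above 0 in at least 10 of the 16 libraries, so it could hardly find a restricted transcript. It tried only steps of 4 counts or more that were large against the highest value. Smaller steps in abundant transcripts could therefore not be found, and the 13 are not a count of all such transcripts.

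Of the 12208 transcripts not called, 10433 had a fold under 1.5 and 1775 a larger fold that did not pass the test. For 5010 the 95% interval of the difference lay within a fold of 1.5 in either direction. A q-value under 0.1 at a fold under 1.5 was found for 4534, and some of these are among the 5010, such as ENSMMUT00000015401.3 (95% interval 0.062 to 0.39 on the log2 scale). The most abundant of those with a fold under 1.5 was ENSMMUT00000015401.3, at 6651.7 to 8353.1 normalised CPM in the liver (median 7328.2) and 5475.9 to 6801.1 in the lung (median 6324.9), higher in the liver in 8 of 8 animals by a log2 difference of 0.23 ± 0.07 (SE, edgeR adjusted p = 0.02). ENSMMUT00000044003.2 was at 870.1 to 1222.7 (median 1010.8) against 1328.2 to 1602.5 (median 1426.1), which did not overlap but differed by a fold of 1.43. ENSMMUT00000029930.3 was at 783.4 to 1448.4 (median 1249.9) against 639.4 to 1280.8 (median 1030.9), higher in the liver in 6 of 8 animals. With library totals alone all 3 were lower in the liver, at log2 differences of -0.87, -1.61 and -0.83, so the direction of ENSMMUT00000015401.3 and ENSMMUT00000029930.3 depended on the scaling and that of ENSMMUT00000044003.2 did not.

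The tissue difference was then fitted within each treatment. In the clinical animals 6538 transcripts were higher in the liver and 6978 in the lung, of 27393 tested, and in the oral animals 6558 and 6892 of 26784. Over the 26099 tested in both, the log2 differences correlated at Pearson's r = 0.936 across transcripts, which are not independent replicates, and no animal was shared by the 2 fits. Of these, 11160 were called in both groups in the same direction, 1909 in the clinical animals alone and 2032 in the oral animals alone. The median absolute difference between the groups was 0.25 on the log2 scale. Whether any single transcript differed in its tissue contrast between treatments was not tested here.

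Called in both groups in opposite directions were 5 transcripts, named here after their values were seen. They were ENSMMUT00000008752.3, ENSMMUT00000019861.3, ENSMMUT00000024056.2, ENSMMUT00000058119.1 and ENSMMUT00000062162.1. In ENSMMUT00000019861.3 the means were 48.3 normalised CPM in the liver and 22.8 in the lung of the clinical animals, and 11.8 and 38.4 in the oral animals. It was the only one of the 5 that was higher in the liver in the clinical animals.

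**Figure D5:**
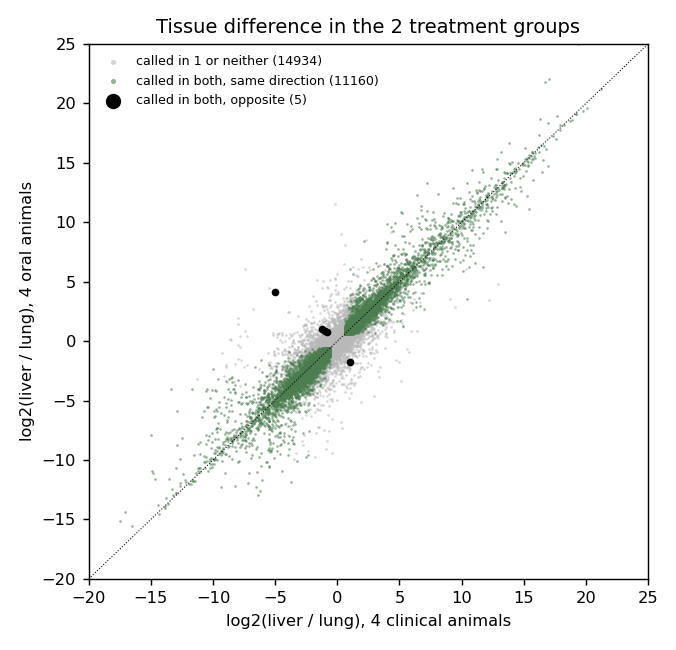
Log2 ratio of liver to lung in the 4 clinical animals (horizontal) and the 4 oral animals (vertical) for 26099 transcripts, 1 point each. Green points were called in both groups in the same direction (11160), black points in opposite directions (5) and grey points in a single group or neither, and the dotted line is equality.

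The shared run holds 7 livers and the lungs of clinical animals 1 and 2. Its libraries were fitted with treatment in place of the animal as a term, over 29750 transcripts. There 6309 transcripts were higher in the liver and 6326 in the lung. Of these, 5589 and 5666 were also called in the same direction in all 16 libraries, and 1 was called in the opposite direction. The libraries of the run are part of the 16, so this agreement is not independent of the main result. In the 2 animals with both libraries in that run, fitted with the animal as a block, the counts were 5214 and 5085 of 28228 tested. The 100 most abundant liver transcripts with a liver level at least 100 times that of the lung summed to 439398 to 593389 normalised CPM in the livers. In the lungs they summed to 235 and 181.3 in the 2 libraries that shared a run with livers and to 160.8 to 220.1 in the other 6. The difference in means was 17.8 normalised CPM (two-sided exact permutation test, p = 0.464, the smallest possible being 0.0357), and both lungs of the shared run were of clinical animals, so that run and treatment cannot be told apart in this comparison.

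The liver table gave values to decimals, with 55.4% of them not whole, and the lung table gave whole numbers. Of the transcripts tested, 3922 had whole values in all 8 livers, and 66% of them were called, against 52.4% of the others. The shares higher in the liver were 28.5% and 25.5%, and those higher in the lung 37.5% and 26.8%. A liver value without counts was taken as whole, so transcripts absent from all 8 livers had whole values by definition. The larger shares called and higher in the lung can follow from that rule, so they cannot show an effect of rounding. Fitted on their own, the transcripts with whole liver values gave 1220 higher in the liver and 1514 higher in the lung. Of the restricted transcripts, 48 of the liver list and 125 of the lung list had whole liver values. The same rule bears on the lung list, since 72 of its 188 transcripts had no counts in any liver after rounding. How the tool and its rounding bear on the tissue difference was not tested.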

How the data were processed

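Liver, lung and hippocampus of 8 fetuses were sequenced, with 8 libraries a tissue. The authors selected polyA RNA, sequenced paired-end 75 bp reads and aligned them with STAR to the Rhesus build MMUL1.0. The submitters' processing notes also name featureCounts and DESeq2. The tool that gave values per transcript and the annotation release are not given in the sources used here. The deposited tables hold estimated counts per transcript, without normalization. Liver values have up to 6 significant digits (11 values of 1000000 or more have 3), and lung and hippocampus values are whole. The lung table had been taken for plain read counts when the tests were set; some of its transcripts step by many counts at a time, as in the liver, so its values are treated as rounded estimates, and the test was not changed.

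Values were rounded to whole numbers. Transcripts were filtered with edgeR's filterByExpr by tissue, scaled by TMM and tested with edgeR 4.0.16 (quasi-likelihood, R 4.3.3), with animal, which holds the treatment, and tissue as terms. The labels give the animal of each library, and deviations from the treatment means correlated at 0.238 to 0.449 between the tissues of the same animal, against a median of -0.058 between different animals. Standard errors were derived from the F statistic. Scripts were tested on simulated data. Measures with 1 value per library were compared by exact permutation. A fold against a tissue at 0 counts is a lower bound against 3 counts per library, and ratios with few counts have 95% Poisson intervals, for counting error only.

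Named are the 5 most abundant called and non-overlapping transcripts of each direction, the next 3 by p, the 5 most abundant restricted ones, the 3 with the largest SD of the tissue difference and the 3 most abundant with a fold under 1.5. The comparison, the lists and the rules were chosen with earlier results of these data known. Lists of marker genes were not used because no identifier was paired with a gene name. Alternatives were DESeq2 1.42.0, other scalings, filters and thresholds, subsets of libraries and leaving out each animal.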

Additional observations from a re-analysis of the deposited data

Results flagged for a closer look

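The highest or lowest of 8 libraries was examined by Dixon's test in 60 groups of 8 values, and 5 stood apart, where chance gives about 3. The lung library of clinical animal 1 had 28641485 counts, against 21088272 to 24181419 in the other 7 lungs. The liver library of oral animal 4 had 24059 detected transcripts, against 24838 to 25428 in the other livers. ENSMMUT00000005417.3 was at 1.27 normalised CPM in the lung of clinical animal 1 and at 0 in the other 7, and ENSMMUT00000005421.3 was at 16.9 in the same library, against 8.91 to 12 in the others. ENSMMUT00000029930.3 was at 783 normalised CPM in the liver of clinical animal 3, against 1149 to 1448 in the other livers. The lung of clinical animal 1 had the highest sum of the 100 liver transcripts among the lungs (235 normalised CPM) and was in the run that held 7 of the livers, as was the lung of clinical animal 2 (181.3). The sum did not differ detectably between the lungs of that run and the other 6 (means 208.2 and 190.4, exact permutation p = 0.464).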

How the results depend on the processing

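The counts of transcripts higher in the liver (6946) and in the lung (7591) changed by more than 1.5 times under 4 settings. With library totals alone they were 2898 and 17451, and with a fold of at least 4 they were 2724 and 3202. With at least 10 counts in every library they were 4986 and 4946, the lung count alone passing that limit. Among transcripts with whole liver values, 0 taken as whole, they were 1220 and 1514, from 4059 tested. In the other settings, they stayed within 1.5 times of the main counts. Without the replicate block they were 7063 and 7444, and DESeq2 gave 8259 and 9058. Leaving out each animal gave 6810 to 7028 and 7420 to 7564. No setting but the libraries of 1 run and its 2 animals (1 transcript each) called a transcript opposite to the main direction. The restricted counts (229 and 188) fell to 109 and 72 with 0 counts in the other tissue, to 155 and 66 with at least 100 counts, and to 48 and 125 with whole liver values; they were 217 and 208 in thinned libraries and 237 to 253 and 199 to 216 without each animal. Of 689 values of the 30 named transcripts under alternatives, 672 had the main direction and call, 2 lost the call (both at a fold of at least 4), 7 gained one and 8 reversed, none of them a called transcript. ENSMMUT00000028791.3 (main value -0.11) reversed to 0.047 without the block and 1.005 in the oral animals, and it ranged from -0.621 to 0.38 when each animal was left out, positive without clinical animal 2, clinical animal 3 (0.187) or oral animal 2 (0.05). ENSMMUT00000015401.3 and ENSMMUT00000029930.3 reversed to -0.87 and -0.83 with library totals, and the latter to -0.063 in the libraries of 1 run. The cause was not tested.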

Other observations

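Transcripts whose identifier numbers differ by 1 were looked at after the values had been seen. Both members were tested in 10769 such pairs and called in 3336, of which 1970 (59.1%) had the same direction. The shares of the 2 directions alone give 50.1%. In 1366 pairs the directions were opposite, and in 204 of these both members differed by a fold of at least 4. ENSMMUT00000003954.3 was at means of 299 normalised CPM in the liver and 4.91 in the lung, and ENSMMUT00000003955.3 was at 4.62 in the liver and 794.1 in the lung. ENSMMUT00000012466.3, the third most abundant of the liver direction, had as its neighbour ENSMMUT00000012465.3, at means of 29.1 in the liver and 163.1 in the lung. Whether such neighbours belong to the same gene was not determined.

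A run of 12 neighbouring identifiers, from ENSMMUT00000038255.1 to ENSMMUT00000038280.2, which holds the abundant ENSMMUT00000038274.2, moved together and was also chosen after its values were seen. All 12 were called higher in the liver, with log2 differences from 2.31 to 2.98 and edgeR adjusted p-values of 2.45e-07 or less. They held 8.77 to 12% of the counts of a liver library (median 10.9%), 3.31 to 5.31% of a lung library (median 3.57%) and 8.72 to 12% of a hippocampus library (median 10.3%). As shares of all counts the liver and the hippocampus overlapped, and the lung lay below both.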
